A study of Bos taurus with 27 samples.

Results

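The rumen epithelium (RE) of Japanese Black cattle was compared between the late stage (29 months of age) and the middle stage (21 months of age) of fattening, across the genes whose array probes gave a clear signal in every biopsy. A probe was included when the scanner software marked it as well above background on all 18 arrays of both stages, and 6797 of 15008 probes (45.3%) met this. They are called bright probes here. The choice rests on brightness and on no test between the stages. It is not independent of stage, because the middle arrays were dimmer and set most of it. Probes not well above background on any 1 middle array were left out, whatever their late level. Every one of the 6797 was also well above background on all 9 arrays of the early stage (14 months of age), and 972 further probes missed the criterion on 1 of the 18 arrays only. Their median log2 change was 0.050, against 0.092 for the bright probes.

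The same 9 castrated animals, each with a rumen fistula, were biopsied with a punch in the ventral sac of the rumen at each stage, on a diet of concentrate with some rice straw. Both groups therefore share breed, castration and fistula, and they differ in age, in time on the diet, in the composition of the concentrate and the amount eaten, and in the slide and scan day of the arrays. There was no group of the same age on another diet. Total RNA was labeled with cyanine 3 and hybridized to 1 array per biopsy, which gave 9 arrays at each stage. The level of a probe is the log2 of its processed intensity minus the median of its array, and a change is the late level minus the middle level of the same animal, averaged over 9 cattle and given with its standard error. A probe with a Benjamini-Hochberg adjusted *P* below 0.05 in limma, adjusted over all 15008 probes, is said to have risen or fallen. A level of one probe cannot be set against that of another.

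The RE is a stratified squamous epithelium. Its basal cells divide, its middle layers are rich in mitochondria and joined by desmosomes and tight junctions, and its surface cells flatten and form a cornified envelope. It takes up volatile fatty acids made by rumen microbes, exchanges them against bicarbonate, pumps sodium and protons, and turns much of the butyrate into ketone bodies. High-grain feeding is known to load this tissue with acid.

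The sequences of 5 probes among those with the largest changes, and of 2 genes of transport and cornification, show what was measured. Each probe has 60 bases, of which the first 30 are printed 5′ to 3′, and the positions are those of the array design on the bovine assembly UMD 3.1. Which exon or untranslated region they lie in was not analysed here.
LAMP3 from base 1884, chr1:84560184-84560243 (plus strand): gcccacctcctgatttacttaaattaccaa
SLA2 from base 3126, chr13:66368939-66368998 (minus strand): gtgccacctcccagagattctgatttcatt
SLC26A3 from base 2881, chr4:49059028-49059087 (minus strand): gaaacatgttcacagtcctctttacagtga
IVL from base 1194, chr3:17883334-17883393 (minus strand): caggtccaagagacccacccagtcctgcca
RHOU from base 219, chr28:2177029-2177088 (minus strand): ccgccgggagcgcggggtccgtgggcccgg
MNX1 from base 196, chr4:119161158-119161859 (minus strand): tgatgctcaccgagactcaggtgaagatct
LRFN2 from base 2270, chr23:14309162-14309221 (minus strand): aaatggcatgctcttgcccttcgaggagag
The RHOU probe is 95% G and C over its 60 bases, the highest share among the bright probes, where the median was 43.3%. The MNX1 probe covers 702 bases of the genome and so crosses a splice junction.

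The 18 arrays differed by stage before any gene was considered. The median processed signal was 8.22 to 28.7 at the middle stage (median 16.7) and 32.2 to 47 at the late stage (median 39.6), with no overlap. Of all probes, the share well above background was 48.5% to 71.5% against 68.4% to 73.7%. Both were higher on the late array of each of the 9 cattle (*P* = 0.0039 each, two-sided exact sign-flip test, the smallest value that 9 pairs allow). The middle arrays set which probes counted as bright, as 3024 probes were well above background on all 9 late but not all 9 middle arrays, and 16 the other way. On the 9 early arrays the median signal was 35.2 to 48.6. The middle arrays of cattle 1 to 7 lay on slide 2 and those of cattle 8 and 9 on slide 3, and the late arrays of cattle 1 to 8 on slide 4 and that of animal 9 on slide 5, each slide scanned on a day of its own among these arrays. No slide held both stages, so stage and slide cannot be told apart. A single early array, that of animal 9, shared slide 2 with the middle arrays of cattle 1 to 7, and its median signal was 48.6.

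**Figure D1:**
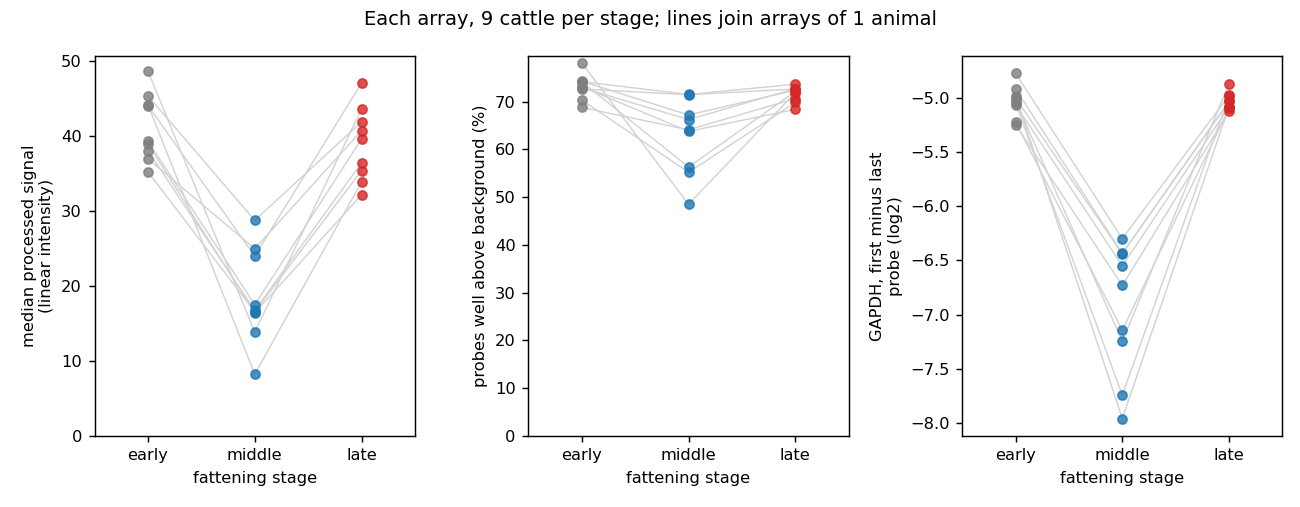
Median processed signal, percent of probes well above background, and the log2 difference between the first and the last GAPDH probe on each array, by fattening stage; points are arrays and lines join the arrays of 1 animal. The middle arrays lie below the late arrays in signal (8.22 to 28.7 against 32.2 to 47) and in the GAPDH difference.

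The tissue was checked against markers, because the extraction text in the labels names neutrophils and liver in place of RE. Of 15 markers of stratified epithelium on the array 14 were bright, among them KRT5, KRT14, TP63 and DSP, while KRT4 was above background on no array. Only 1 of 14 liver markers was bright, APOA2, and 8 of the 14, ALB among them, were above background on no late array, but 4 were on all 9, namely APOA2, APOA1 (8 middle and 9 late), TTR (5 middle and 9 late) and AHSG (0 middle and 9 late), and CPS1 was on 2 middle arrays and 8 late. Of 10 neutrophil markers 1 was bright, S100A12, which keratinocytes also make, and ELANE was above background on no array, but CXCR2 (1 middle and 9 late) and CSF3R (4 middle and 9 late) were on all 9 late arrays, FCGR3A on 3 middle and 8 late and LTF on 8 middle and 8 late. The summed neutrophil level was 11.56 to 13.05 (median 12.22) at the middle stage and 11.28 to 11.71 (median 11.48) at the late stage, and the summed liver level 5.24 to 6.66 (median 5.95) and 5.25 to 6.15 (median 5.78). S100A12 alone had a mean level of 11.82 over both stages, close to the neutrophil sums. These sums thus largely follow that probe and are no measure of neutrophils, and they cannot be set against sums of other markers.

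Most bright probes differed between the stages. 4214 of 6797 passed the test (62.0%), 2308 higher at the late stage (34.0%) and 1906 lower (28.0%), and 2922 bright probes moved in 1 direction in every one of the 9 cattle. Over all 15008 probes 66.9% passed, 24.5% higher and 42.4% lower, and over the 8211 other probes 71.0% passed, 16.7% were higher and 54.3% lower. Falls thus outnumbered rises among dim probes and not among bright ones. A change of at least 2-fold was called for 751 bright probes higher (11.0%) and 696 lower (10.2%). The 9 middle and 9 late levels did not overlap for 1769 bright probes (26.0%).

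The balance between rises and falls depended on what the levels were set against. Rises made up 54.8% of the calls with the array median of all probes, 42.6% with the 75th percentile, 42.2% with the median of the bright probes and 83.3% after normexp background correction. At 2-fold these shares were 51.9%, 34.4%, 34.1% and 96.7%, and quantile normalization gave 39.7%. The median change of the bright probes was 0.092 (range over the 9 cattle −0.16 to 0.29), and −0.28 over all probes. For gene groups the median is therefore also given relative to the median of the bright probes. The counts of each group are to be read against the 34.0% of all bright probes that rose and the 28.0% that fell. When the slide was a random block 2288 bright probes passed, 1134 higher and 1154 lower. Such a block takes up only slide differences within a stage. It cannot separate slide from stage, because no slide held both stages.

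The 12 largest rises were 6.04-fold or more. LAMP3, a lysosomal membrane protein, had levels of 2.32 to 4.50 (median 3.33) at the middle stage and 6.64 to 7.39 (median 7.20) at the late stage. The lowest late array was thus above the highest middle array, and the change was 3.74 ± 0.19 (13.3-fold, adjusted *P* = 3.2e-07). ENPP3, an ectoenzyme that cleaves extracellular nucleotides, went from a median of 1.97 (range 0.45 to 2.93) to 5.72 (range 5.36 to 5.97), a change of 3.67 ± 0.23. For SLA2, an adaptor that dampens T-cell receptor signaling, the middle arrays held 0.93 to 1.85 (median 1.31) and the late arrays 4.56 to 5.37 (median 4.83), and its change of 3.62 ± 0.12 had the smallest error of the 12. The anion exchanger SLC26A3, which swaps chloride for bicarbonate, had 2.36 to 6.27 (median 3.58) at the middle stage, the widest spread of the 12 at that stage, and 6.97 to 7.98 (median 7.73) at the late stage, a 12.2-fold rise (3.61 ± 0.41).

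DNASE1L3, a secreted nuclease, rose from a median of 1.53 (range 0.21 to 2.68) to 4.75 (range 4.06 to 5.25). IL36RN, the antagonist of the interleukin-36 receptor, rose from a median of 2.31 (range 0.60 to 2.99) to 5.20 (range 4.59 to 6.05). The organic anion transporter SLC22A8 rose from a median of 1.98 (range 1.12 to 2.59) to 4.83 (range 4.29 to 5.61). These changes were 3.08, 2.99 and 2.93 on the log2 scale. MFGE8, which bridges dying cells to phagocytes, had levels of 2.47 to 4.10 (median 3.15) and then 5.45 to 6.41 (median 6.07). AUP1, a protein of lipid droplets and the endoplasmic reticulum (ER), had −0.19 to 1.19 (median 0.54) and then 2.94 to 3.53 (median 3.15). The protease inhibitor SPINK5, which restrains kallikreins of the cornified layer, had 2.38 to 4.10 (median 3.17) and then 5.47 to 6.17 (median 6.04). These rises were 2.87, 2.70 and 2.67. SDCBP2, a scaffold protein with PDZ domains, changed by 2.62 ± 0.30, and SELENBP1, a selenium-binding oxidase, by 2.59 ± 0.25, the smallest of the 12 at 6.04-fold. In none of the 12 did the stages overlap.

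**Figure D2:**
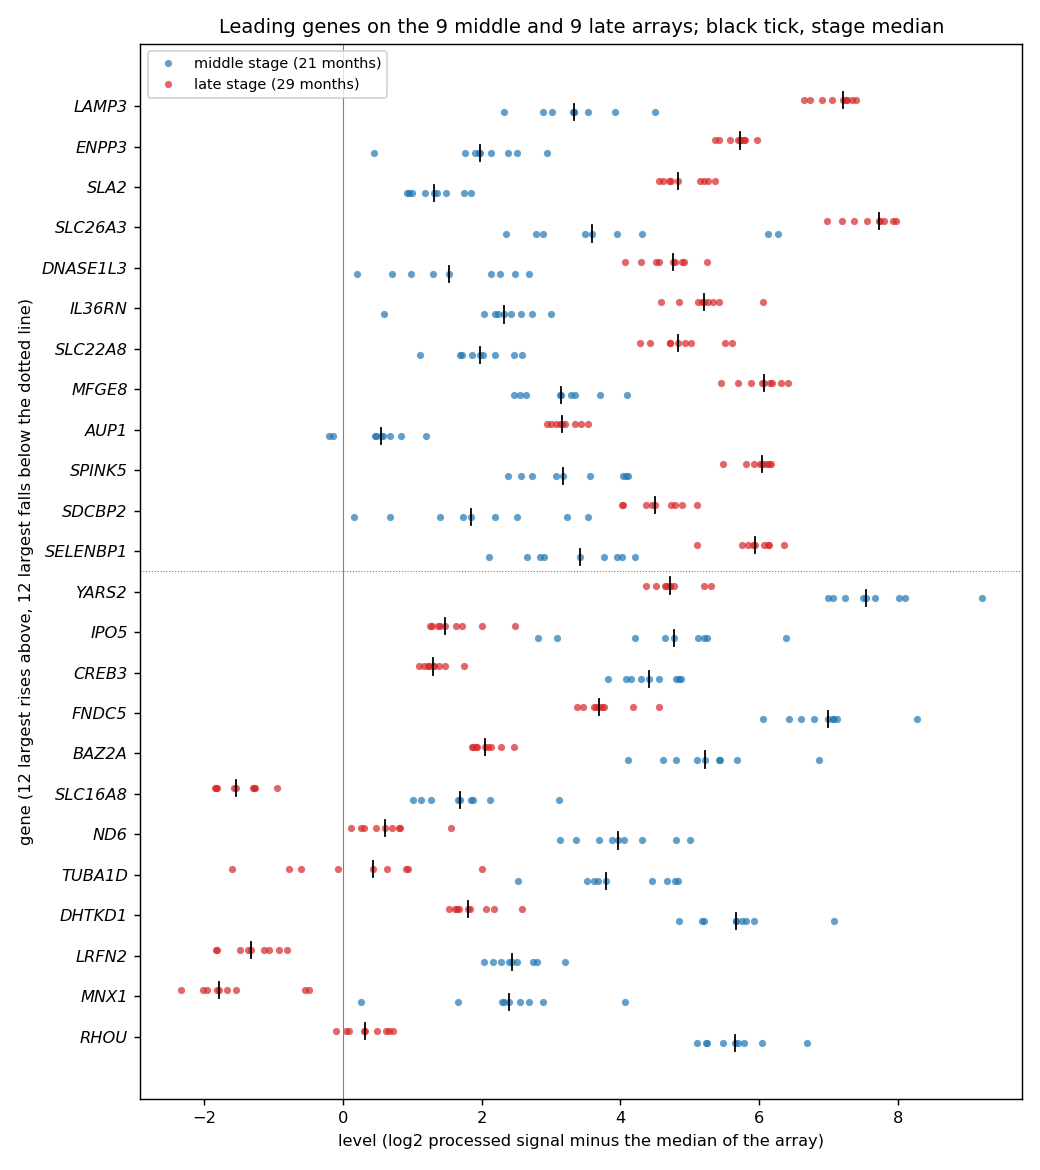
Levels on the 9 middle arrays (blue) and the 9 late arrays (red) of the 12 most raised and the 12 most lowered genes among bright probes that have a gene symbol and moved in 1 direction in every animal; the x axis is log2 processed signal minus the array median and black ticks are stage medians. The stages do not overlap in any of the 24 genes, and RHOU shows the widest gap.

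The largest falls included the largest change of any bright probe. RHOU, an atypical small GTPase, had levels of 5.10 to 6.69 (median 5.66) at the middle stage and −0.10 to 0.72 (median 0.32) at the late stage, a 39.7-fold fall (−5.31 ± 0.16, adjusted *P* = 4.96e-09). Its probe is the one richest in G and C, and the part of this in its change was not tested. MNX1, a homeobox factor, fell from a median of 2.40 (range 0.26 to 4.06) to −1.79 (range −2.34 to −0.49). LRFN2, a synaptic adhesion protein, fell from a median of 2.43 (range 2.03 to 3.20) to −1.33 (range −1.82 to −0.80). Both ended below the median of the array on all 9 late arrays. DHTKD1, a mitochondrial enzyme of lysine breakdown, fell from a median of 5.67 (range 4.84 to 7.08) to 1.80 (range 1.53 to 2.58) (13.9-fold). An alpha tubulin, TUBA1D, fell from a median of 3.79 (range 2.53 to 4.83) to 0.44 (range −1.59 to 2.01), with the widest spread of late levels among the 12 and close paralogs that may share its signal. ND6, the complex I subunit encoded on the light strand of mitochondrial DNA, fell from a median of 3.96 (range 3.13 to 5.0) to 0.60 (range 0.11 to 1.55).

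SLC16A8, a lactate carrier of the monocarboxylate transporter family, had 1.0 to 3.12 (median 1.69) at the middle stage and −1.84 to −0.95 (median −1.54) at the late stage, below the array median on every late array. BAZ2A, a nucleolar chromatin protein, had 4.11 to 6.86 (median 5.22) and 1.86 to 2.46 (median 2.05), and FNDC5, the membrane precursor of irisin, had 6.06 to 8.27 (median 7.0) and 3.37 to 4.55 (median 3.68). The falls of these genes were −3.23, −3.18 and −3.15 on the log2 scale. CREB3, a transcription factor held in the ER membrane, changed by −3.10 ± 0.15, the nuclear import receptor IPO5 by −2.98 ± 0.37 and YARS2, the mitochondrial tyrosyl-tRNA synthetase, by −2.94 ± 0.23. All 24 leading genes passed the test under every alternative run on them, with a largest adjusted *P* of 0.00587 (IPO5) when the slide was a random block. The 24 were chosen as the largest changes on these same arrays, so their passing is no independent evidence. On the early arrays, the median level of all 12 leading rises lay nearer to the late than to the middle median, as it did for 5 of the 12 leading falls. LAMP3 was at 4.58 to 6.91 there, and RHOU at 4.30 to 4.63. These genes were chosen for a large change between the middle and late stages, and the same share over all bright probes was not analysed here. The median signal of the early arrays (median 39.3) was also near that of the late arrays (39.6) and above that of the middle arrays (16.7). A return of these genes to their early level was not tested.

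Of 45 genes of the cornified envelope and its enzymes on the array 20 were bright, and 12 of 20 rose, 3 fell and 5 did not pass the test, against 34.0% and 28.0% of all bright probes. Their median was 0.55, or 0.46 relative to the bright probes (0.27 to 0.76 over the 9 cattle). With the 75th percentile 10 higher and 3 lower were called, and a random block for the slide left 8 higher and 2 lower. Involucrin (IVL), a scaffold of the envelope, had 6.33 to 7.82 (median 6.90) at the middle stage and 8.95 to 9.71 (median 9.48) at the late stage, a rise of 2.57 ± 0.16. KLK8, a serine protease of squamous epithelia, went the other way with −0.99 ± 0.14, as did LGALS7B, a keratinocyte galectin, with −0.64 ± 0.13. The stages overlapped in both.

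Among genes of cell junctions, 14 of 25 bright genes rose, 5 fell and 6 did not pass the test, with a median of 0.61 (0.52 relative to the bright probes). DSC2, a desmosomal cadherin, went from a median of 7.83 (range 5.56 to 8.50) to 9.0 (range 8.72 to 9.23). CGN, a tight-junction protein, fell from a median of 2.86 (range 1.52 to 3.58) to 0.98 (range 0.85 to 1.38), and JUP, the desmosomal plakoglobin, changed by −0.58 ± 0.15. The slide block left 9 higher and 1 lower and ended the call of JUP (adjusted *P* = 0.114), as normexp correction did. The relative median was 0.30 in cattle 1 to 7 alone. Of 18 bright keratins 3 rose, 4 fell and 11 did not pass, and after normexp correction 10 higher and 1 lower were called. KRT6A, a keratin of activated suprabasal cells, rose by 1.63 ± 0.34, and KRT78, a keratin of differentiated layers, by 0.85 ± 0.28, but neither passed when the slide was a random block (adjusted *P* = 0.0524 and 0.181). KRT85 and KRT19 fell by 1.44 and 1.02. No S100 gene rose. Of 9 bright members of this family of calcium-binding proteins 5 fell, with a median of −0.42, among them S100A14 (−1.20 ± 0.16) and S100A3 (−1.11 ± 0.15), although after normexp correction 4 higher and 2 lower were called and after quantile normalization 0 higher and 3 lower. The slide block left 0 higher and 2 lower among keratins and 0 higher and 3 lower in the S100 family.

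Of 17 bright pump genes 11 rose, 3 fell and 3 did not pass, with the highest relative median of the lists not taken from the study at 0.59 (0.35 to 1.32 over the cattle). The largest rises were in the vacuolar proton pump, where ATP6V0B had 2.55 to 4.92 (median 4.23) at the middle and 6.25 to 6.52 (median 6.47) at the late stage and ATP6V0D1 rose by 2.28 ± 0.29. With the slide block 6 higher and 1 lower were called. Of 331 solute carrier (SLC) genes on the array only 124 were bright, and 45 rose and 37 fell. These shares, 36.3% and 29.8%, are close to those of all bright probes, and with the 75th percentile the split was 34 higher and 46 lower, and with the slide block 20 higher and 23 lower.

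The transporters that the study lists were chosen on these samples, so their direction is no independent evidence. Of 18 on the array 15 were bright, of which 9 rose and 6 fell. Beside SLC26A3 and SLC22A8, the largest rise was in SLC25A6, a mitochondrial carrier of adenine nucleotides, which had 1.52 to 4.10 (median 3.58) at the middle stage and 5.36 to 5.96 (median 5.74) at the late stage. Its relative SLC25A5 changed by 1.76 ± 0.24, the oxoglutarate carrier SLC25A11 by 1.43 ± 0.17, the peroxisomal carrier SLC25A17 by 1.25 ± 0.18 and the monoamine and nucleoside transporter SLC29A4 by 1.47 ± 0.13. The carnitine transporter SLC22A5 fell from a median of 7.62 (range 6.93 to 7.67) to 5.67 (range 5.37 to 6.24). SLC5A12, a sodium-coupled lactate and monocarboxylate transporter, fell from a median of 9.22 (range 8.65 to 10.43) to 8.08 (range 7.95 to 8.34), and the zinc transporter SLC39A7 from a median of 5.87 (range 5.66 to 6.29) to 4.69 (range 4.57 to 4.97). The falls of these 3 genes left no overlap between the stages.

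Rises outnumbered falls in each group of mitochondrial genes, as they also did among all bright probes (34.0% against 28.0%). For the nuclear subunits of oxidative phosphorylation 30 of 61 bright genes rose, 7 fell and 24 did not pass the test, with a relative median of 0.26 (−0.069 to 0.71 over the cattle, above 0 in 8 of 9). SDHB, the iron-sulfur subunit of complex II, had 2.92 to 4.96 (median 4.54) at the middle stage and 6.24 to 6.63 (median 6.46) at the late stage, and the complex III core subunit UQCRC1 changed by 2.01 ± 0.21. Complex I subunits lay at both ends, as NDUFS1 rose by 1.79 ± 0.13 while NDUFC1 and NDUFA6 changed by −2.65 ± 0.21 and −1.90 ± 0.12. Of the respiratory genes that the study lists, again chosen on these samples, 10 of 13 on the array were bright, of which 8 rose and 2 fell. Enzymes of the citric acid cycle showed 9 rises and 2 falls among 15, with a relative median of 0.254 (above 0 in 9 of 9 cattle). OGDH (1.81 ± 0.13) and SUCLA2 (1.08 ± 0.23) led the rises. PDHA1, the entry subunit of pyruvate dehydrogenase, and citrate synthase (CS) fell by 1.20 and 0.87. Mitochondrial ribosomal proteins showed 34 rises and 9 falls among 68, with a relative median of 0.318 (above 0 in 8 of 9 cattle). MRPL28 changed by 1.69 ± 0.15 and MRPL52 by −2.0 ± 0.16. With the slide as a random block 14 higher and 6 lower were called in oxidative phosphorylation, 4 higher and 2 lower in the cycle and 18 higher and 7 lower among these ribosomal proteins, and with the 75th percentile 26 higher and 13 lower, 6 higher and 2 lower and 26 higher and 12 lower in that order.

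In fatty acid oxidation and ketogenesis, the route from butyrate to ketone bodies, 16 of 28 bright genes rose, 5 fell and 7 did not pass the test, with a median of 0.50. ECHS1, the enoyl-CoA hydratase of beta-oxidation, had 3.72 to 4.50 (median 3.97) at the middle stage and 5.75 to 6.19 (median 5.91) at the late stage, and ACSS2, which activates acetate, changed by 1.60 ± 0.24. ECI2 and the medium-chain dehydrogenase ACADM fell, with −1.05 ± 0.17 and −0.94 ± 0.16. A random block for the slide left 6 higher and 3 lower, and the 75th percentile 10 higher and 5 lower. Of 12 bright glycolytic genes 4 rose and 2 fell. PGK1 rose from a median of 3.31 (range 1.21 to 4.28) to 5.57 (range 5.24 to 5.83) and LDHA by 0.81 ± 0.18, but PFKP and TPI1 changed by −1.47 ± 0.20 and −0.42 ± 0.12. With the 75th percentile 3 higher and 5 lower were called, and with the slide block 2 higher and 1 lower, where LDHA and TPI1 did not pass (adjusted *P* = 0.0671 and 0.0841) and TPI1 changed by 0.39 after normexp correction. Cholesterol synthesis had 6 rises and 4 falls among 18, or 33.3% and 22.2%, against 34.0% and 28.0% of all bright probes. CYP51A1 and the sterol sensor partner INSIG1 rose by 1.28 and 1.31, and FDPS and EBP changed by −1.02 and −0.86, while the 75th percentile gave 4 higher and 6 lower and the slide block 4 higher and 2 lower.

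Among antioxidant enzymes 23 of 38 bright genes rose, 6 fell and 9 did not pass the test. Their relative median was 0.55, above 0 in 9 of 9 cattle (0.088 to 1.05). Catalase (CAT) lay below or near the array median at the middle stage, at −0.96 to 0.32 (median −0.38), and at 1.49 to 2.67 (median 2.05) at the late stage, a rise of 2.41 ± 0.16. GPX4, which reduces lipid peroxides, changed by 1.49 ± 0.19. SOD2, the mitochondrial superoxide dismutase, had 2.91 to 4.57 (median 3.92) and 4.87 to 5.55 (median 5.16), and the cytosolic SOD1 4.91 to 6.48 (median 5.70) and 6.26 to 6.75 (median 6.44). The SOD2 levels did not overlap, those of SOD1 did, and SOD1 (0.78 ± 0.17) did not pass with the slide as a random block (adjusted *P* = 0.0734). GPX7, of the ER, and the quinone reductase NQO2 fell, with −1.18 ± 0.29 and −0.83 ± 0.22, and neither passed with that block. In all, that block left 9 higher and 1 lower.

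Lysosomal genes rose in 22 of 34 cases and fell in 3, with a relative median of 0.57 that ranged from 0.39 to 0.83 over the cattle. Beside LAMP3, the protease cathepsin D (CTSD) had 0.76 to 2.11 (median 1.67) at the middle stage and 3.36 to 4.05 (median 3.73) at the late stage. GALNS, a sulfatase, fell from a median of 1.47 (range 1.12 to 1.85) to 0.49 (range 0.20 to 0.80). The slide block left 14 higher and 1 lower of the lysosomal genes. For the ER and secretory route 22 of 41 bright genes rose (53.7%), 6 fell (14.6%) and 13 did not pass the test, with a relative median of 0.32. With the slide block 13 higher and 2 lower were called. SPCS1, of the signal peptidase, rose by 1.93 ± 0.22 and the protein disulfide isomerase P4HB by 1.87 ± 0.27 (17 of 18 values, because a spot marked as an outlier was left missing). PDIA4, a related isomerase, and the stress factor DDIT3 changed by −1.42 ± 0.19 and −1.09 ± 0.21. Proteasome subunits had 16 rises (48.5%) and 6 falls (18.2%) among 33, with a relative median of 0.26. PSMC3, an ATPase of the cap, changed by 1.64 ± 0.20, and PSMB8, the catalytic subunit of the immunoproteasome, by −1.19 ± 0.17. With the slide as a random block 3 higher and 4 lower were called in this group, and with the 75th percentile 9 higher and 6 lower. Of 26 bright chaperone genes 11 rose (42.3%) and 6 fell (23.1%), shares not far from the 34.0% and 28.0% of all bright probes. They ran from CCT7 (1.76 ± 0.19) to HSPA4L (−0.91 ± 0.15). With the 75th percentile the split was 7 higher and 8 lower, and with the slide block 3 higher and 2 lower.

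Among translation factors 26 of 42 bright genes rose, 5 fell and 11 did not pass the test, with a relative median of 0.44 (above 0 in 9 of 9 cattle). The slide block left 12 higher and 2 lower. EIF3G had 2.47 to 3.79 (median 3.27) at the middle stage and 4.91 to 5.36 (median 5.18) at the late stage, and EIF3A, another subunit of the same initiation complex, fell by 1.19. Among cytosolic ribosomal proteins 9 of 57 rose and 29 fell, with a median of −0.44 (−0.54 relative to the bright probes, below 0 in 9 of 9 cattle), but after normexp correction 28 higher and 7 lower were called with a median of 0.40, and after quantile normalization 13 higher and 21 lower, and the slide block left 5 higher and 17 lower. RPL3 fell from a median of 3.57 (range 2.66 to 4.35) to 0.86 (range 0.58 to 1.08) and RPL37 from a median of 2.64 (range 2.05 to 3.50) to 0.38 (range 0.027 to 0.52), while RPL15 rose from a median of 6.60 (range 4.82 to 7.22) to 8.58 (range 8.37 to 8.72). Many of these genes have processed copies in the genome that a probe may also bind.

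Splicing factors fell more often than they rose, with 20 falls and 9 rises among 50 and a relative median of −0.33 (below 0 in 9 of 9 cattle), although after normexp correction 30 higher and 9 lower were called. SNRNP200, the helicase of the spliceosome, fell from a median of 2.23 (range 1.82 to 3.40) to 0.41 (range −0.12 to 0.96), and HNRNPAB changed by 0.94 ± 0.16. Of 40 bright genes of DNA replication and mitosis 17 fell and 5 rose, but after normexp correction 19 higher and 6 lower were called and the relative median ranged over the cattle from −0.94 to 0.22. BUB1 and BUB1B, kinases of the spindle checkpoint, changed by −2.08 ± 0.31 and −2.25 ± 0.40, and the replication helicase subunit MCM3 rose from a median of 0.79 (range −0.10 to 1.11) to 2.50 (range 1.94 to 3.06). Zinc finger genes had 33 falls and 18 rises among 95 bright members of 226 on the array, with a relative median of −0.16, and after normexp correction 54 higher and 13 lower. ZNF33B fell from a median of 6.63 (range 4.97 to 8.87) to 3.91 (range 3.51 to 4.55). Of 33 bright genes of the actin cytoskeleton 11 fell and 7 rose, but after normexp correction 20 higher and 3 lower. MYH9, the nonmuscle myosin heavy chain, fell from a median of 1.33 (range 0.83 to 2.57) to −1.18 (range −1.70 to −0.78), WDR1 changed by −2.52 ± 0.20 and ARPC4, of the actin-branching complex, by 1.52 ± 0.23. In these 4 groups the slide block left 2 higher and 16 lower, 3 higher and 6 lower, 5 higher and 21 lower and 4 higher and 6 lower, in the order given.

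In the interferon list 5 of 18 bright genes rose (27.8%) and 6 fell (33.3%), shares near those of all bright probes, with 4 higher and 8 lower by the 75th percentile, and only 18 of 48 on the array were bright. The chemokine CXCL10 had −0.39 to 1.41 (median −0.086) at the middle stage and 1.61 to 3.03 (median 2.30) at the late stage, and IFI35 fell from a median of 5.45 (range 5.0 to 5.91) to 3.85 (range 3.77 to 4.28). ISG15 changed by −1.10 ± 0.37, with late levels from −0.16 to 3.14, and did not pass with the slide as a random block (adjusted *P* = 0.283). In antigen presentation 3 of 14 rose and 5 fell, but after normexp correction 6 higher and 3 lower. The class II chain BOLA-DRA rose by 1.08 ± 0.26 and did not pass with the slide block (adjusted *P* = 0.0876), and BOLA-DMA, which loads peptides onto class II, changed by −1.08 ± 0.12. Immediate early genes had 8 rises and 4 falls among 19, and 4 higher and 5 lower in the series matrix values. KLF4, a regulator of epithelial differentiation, had 2.45 to 5.24 (median 4.56) and then 6.33 to 7.05 (median 6.59), DUSP1 changed by 1.88 ± 0.24 and JUN by −0.94 ± 0.21. The slide block left 2 higher and 2 lower in the interferon list, 1 higher and 3 lower in antigen presentation and 3 higher and 1 lower among immediate early genes.

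**Figure D3:**
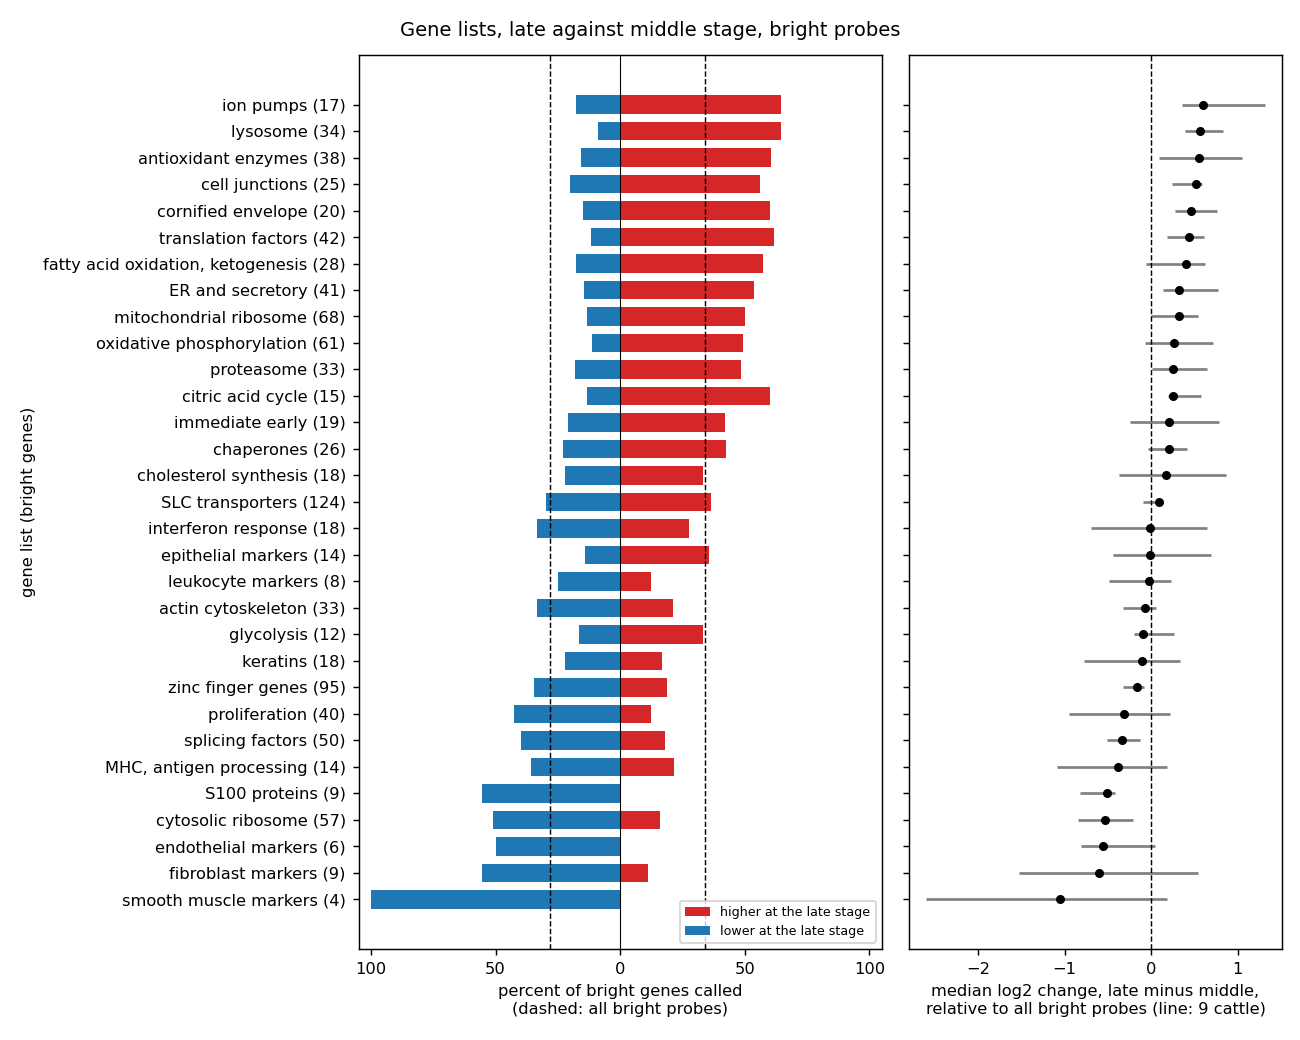
Left, percent of the bright genes of each list (number in brackets) called higher (red) or lower (blue) at the late stage, with dashed lines at the 34.0% and 28.0% of all bright probes; right, median log2 change of the list relative to all bright probes (dot) and the lowest and highest of the 9 cattle (line). Ion pumps, lysosomal and antioxidant genes lie highest among the lists shown, and cytosolic ribosomal proteins and the markers of smooth muscle, fibroblasts and endothelium lie lowest, although after normexp correction most called ribosomal, fibroblast and endothelial genes were higher.

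Among markers of cells below the epithelium, most of those called were lower at the late stage, and these values stand beside all the gene groups above. A biopsy is a bulk sample, in which fewer cells of a type and less RNA per cell cannot be told apart. All 4 bright of 9 smooth muscle markers fell, with CALD1 at 7.30 to 9.17 (median 7.89) and then 5.99 to 6.92 (median 6.28) (17 of 18 values) and ACTA2 at 5.50 to 9.03 (median 7.56) and then 6.08 to 6.82 (median 6.31). The summed level of the 9 markers was 8.03 to 10.22 (median 9.39) at the middle stage and 7.61 to 8.39 (median 7.81) at the late stage, and ACTA2 (−0.97 ± 0.31) did not pass without cattle 4, 8 and 9 (adjusted *P* = 0.134). Of 9 bright fibroblast markers 5 fell and 1 rose. The rise, of 1.62, was the largest change among them and the only call of at least 2-fold, and the lowest change was −0.91. The 2 brightest were COL1A2 at −0.74 ± 0.22 and COL6A1 at −0.20 ± 0.18. Of 6 bright endothelial markers 3 fell. After normexp correction, however, 2 higher and 0 lower were called for fibroblasts and 2 higher and 0 lower for endothelium. With the slide block 0 higher and 1 lower were called for smooth muscle, 1 higher and 1 lower for fibroblasts and 0 higher and 0 lower for endothelium, and without cattle 4, 8 and 9 smooth muscle had 0 higher and 2 lower and endothelium 0 higher and 1 lower. The summed levels of the fibroblast and of the endothelial markers overlapped, at 7.30 to 10.45 (median 9.34) against 7.02 to 9.25 (median 8.81) and 5.74 to 6.77 (median 6.33) against 5.75 to 6.38 (median 5.95). The hemoglobin gene HBA fell from a median of 7.10 (range 6.67 to 7.61) to 5.78 (range 5.44 to 6.46), with no overlap, but did not pass after normexp correction (−0.27, adjusted *P* = 0.235), and 4 of the 7 red cell markers were above background on no middle array. Leukocyte markers had 1 rise and 2 falls among 8 bright, with changes from −1.25 to 2.08. Their summed levels were 6.54 to 7.77 (median 6.95) and 6.41 to 7.08 (median 6.69). Epithelial markers summed to 10.04 to 12.21 (median 11.26) and 11.88 to 12.26 (median 12.03). Of the 14 bright 5 rose, 2 fell and 7 did not pass the test, with a relative median of −0.015 (above 0 in 5 of 9 cattle). The slide block left 3 higher and 0 lower. EPCAM changed by 1.64 ± 0.21 and DSG3 by −0.44 ± 0.12, and DSG3 did not pass with the slide block (adjusted *P* = 0.133). The part of these markers in the other changes was not tested.

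Probes that share a gene symbol did not always move together. Of 13 genes with several bright probes, 3 had probes called in opposite directions, namely GAPDH, ACTB and RPL27, which encode a glycolytic enzyme, cytoplasmic actin and a ribosomal protein and are often used as references. Most of their probes are printed because the direction of the gene depends on which is read. The start is the position in the transcript that the array design gives.
GAPDH from base 176, chr5:104239604-104239754 (minus strand): attgaccttcactacatggtctacatgttc
GAPDH from base 454, chr5:104239012-104239162 (minus strand): agtttgtgAtgggcGtGaaccacgGgaagt
GAPDH from base 456, chr5:104239009-104239160 (minus strand): ttgtgCtgggcAtGaaccacgAgaagtata
GAPDH from base 459, chr5:104239006-104239157 (minus strand): tgAtgggcTtTaaccacgAgaagtataaca
GAPDH from base 972, chr5:104237943-104238104 (minus strand): tcaacgaccactttgtcaagctcatttcct
GAPDH from base 989, chr5:104237927-104238087 (minus strand): taagctcatttcatggtacgacaatgaatt
GAPDH from base 1185, chr5:104237730-104237789 (minus strand): catctctaaggccctgaggaaggggagggg
GAPDH from base 1209, chr5:104237706-104237765 (minus strand): gaggggcttacggagccctgccttgtgtac
ACTB from base 320, chr25:39344873-39344932 (plus strand): accaactgggacgacatggagaagatctgg
ACTB from base 1587, chr25:39346800-39346859 (plus strand): ggtgatcgcttttgtgtaaattatgtactc
ACTB from base 1780, chr25:39346993-39347052 (plus strand): gctttcctgtacactgacttgagaccagtt
RPL27 from base 300, chr19:43671380-43671439 (plus strand): atatccccttggacaaaactgttgtcaaca
RPL27 from base 389, chr19:43671469-43671642 (plus strand): tttgaggagagatacaagacgggcaagaac
RPL27 from base 415, chr19:43671609-43671668 (plus strand): gaacaaatggttcttccagaagctgcggtt
The GAPDH probes from bases 454, 456 and 459 lie on one another, and capitals mark the 4 of 24 aligned positions at which they differ. They are thus variants of 1 site and not independent probes of it, and which of them equals the transcript was not analysed here. The GAPDH probes from bases 972 and 989 also overlap. Their printed bases differ within the overlap, which no capitals mark. GAPDH probes whose genomic span is over 60 bases cross a splice junction.

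In GAPDH the probes near the start of the transcript rose and those near the end did not. The probe from base 176 changed by 1.68 ± 0.18, the variants from bases 454, 456 and 459 by 1.34 ± 0.22, 1.55 ± 0.23 and 1.62 ± 0.23, those from 972 and 989 by 0.60 ± 0.15 and −0.078 ± 0.14, and those from 1185 and 1209 by −0.80 ± 0.12 and −0.24 ± 0.12. The probes from bases 972 and 989 overlap and differ in sequence there, so they are not 2 independent positions. The part of sequence and of position in these changes was not tested. In all 5 rises and 1 fall were called. In ACTB the probes from bases 320 and 931 rose by 0.48 ± 0.19 and 0.52 ± 0.17, and those from 1587 and 1780 fell, with −0.36 ± 0.15 and −0.43 ± 0.17, none of which passed with the slide as a random block. After normexp correction the probes from bases 1185 and 1209 of GAPDH changed by 0.015 and 0.57 and those from bases 1587 and 1780 of ACTB by 0.39 and 0.38, and none of these 4 was lower. In RPL27 the probe from base 300 rose by 0.56 ± 0.14, that from 389 fell (−0.49 ± 0.13), and that from 415 changed by −0.16 ± 0.14, which did not pass, and neither of the former passed with the slide as a random block. A further RPL27 probe, from base 450 of another transcript, changed by −0.46 ± 0.16.

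Within an array the difference between the first and the last probe of a transcript is free of scaling. For GAPDH it was −7.96 to −6.30 on the middle arrays and −5.12 to −4.87 on the late arrays, higher on the late array of all 9 cattle (mean 1.92 ± 0.62, SD). On the 9 early arrays it was −5.25 to −4.77, and −4.92 on the early array that shared slide 2 with 7 middle arrays. The difference rose by 0.91 ± 0.73 in ACTB (8 of 9 cattle) and by 0.73 ± 0.19 in RPL27 (9 of 9). These transcripts were chosen for probes called in opposite directions between the same stages, so the differences are given as a description with no test. Of the other 10 genes with several bright probes, 6 had probes of opposite sign that were not both called, namely CERS1, COX6B1, RPS20, SEH1L, SLC10A5 and TADA2B. Among these 6 only the RPS20 probes belong to the same transcript. The COX6B1 probes lie on chromosomes 5 and 18 and the TADA2B probes on chromosomes 6 and X, so these may not read the same gene. The probes of these 6 genes lay up to 0.881 (SLC10A5) and 0.872 (SEH1L) apart. Those of ACTB, which share a transcript, lay 0.948 apart. The other 4, ADAMTSL5, OAZ1, POLR1D and RPS13, had probes of 1 sign that lay 0.0659 to 0.267 apart. Of these the OAZ1 and RPS13 probes share a transcript.

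**Figure D4:**
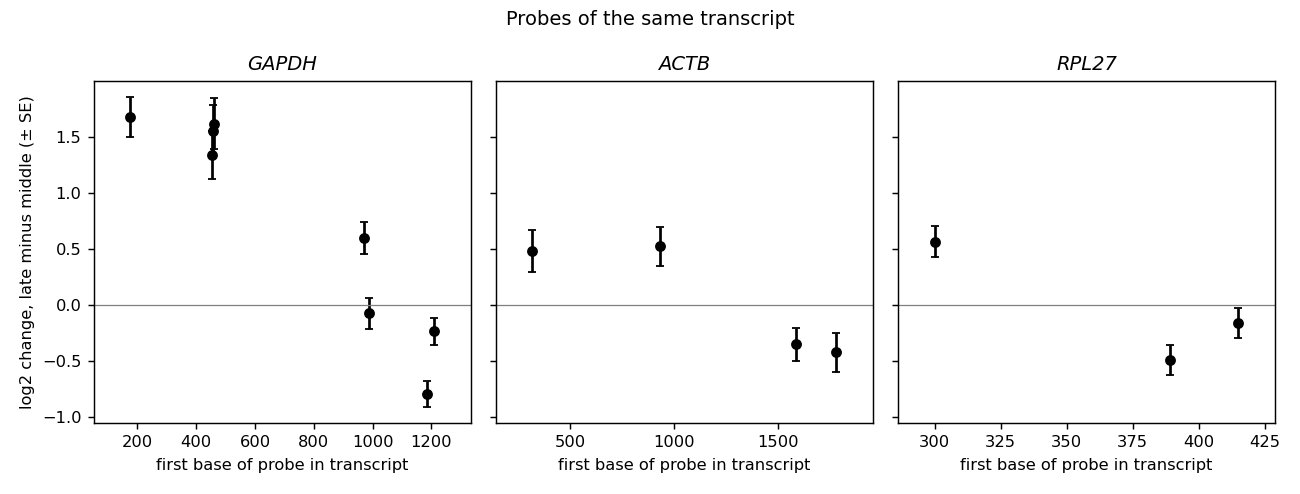
Log2 change (late minus middle, with its SE over 9 cattle) of each bright probe of GAPDH, ACTB and RPL27 against the first base of the probe in the transcript. Probes that begin early in the GAPDH and ACTB transcripts lie above 0 and those near the end lie below it with this background treatment, though not after normexp correction, from 1.68 to −0.80 in GAPDH.

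Across all bright probes the changes also moved with features of the probe, which is given as a description with no test. Of 5 groups of about equal size by mean level, the dimmest had a median change of −0.31, with 19.4% called higher and 45.4% lower, and the other groups had medians of 0.14 to 0.22. Over 5 groups by content of G and C, of 452 to 2145 probes, the median fell in steps from 0.29 at 18.3% to 36.7% to −0.19 at 55% to 95%, and the share called lower rose from 16.8% to 39.8%. By start in the transcript the medians lay between 0.051 and 0.16, and calls of at least 2-fold fell in both directions, higher from 15.7% in the group nearest the 5′ end to 7.21% in the farthest and lower from 13.8% to 8.75%. Distance from the 3′ end was not analysed here. The median G and C share was 43.3% for the oxidative phosphorylation genes, 43.3% for the lysosomal genes, 38.3% for the pumps, 39.2% for the splicing factors and 45% for the cytosolic ribosomal proteins. The part of probe composition in the group medians was not tested.

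**Figure D5:**
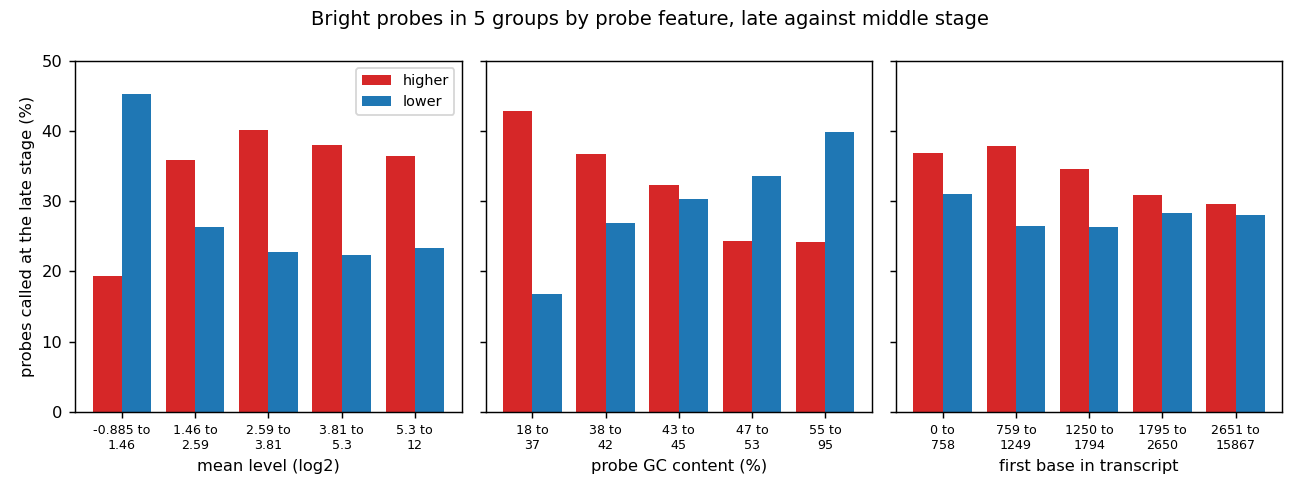
Percent of bright probes called higher (red) and lower (blue) at the late stage in 5 groups each by mean level, by content of G and C and by start in the transcript, with the limits of each group on the x axis. Falls outnumber rises in the dimmest group (45.4% against 19.4%) and in the 2 groups richest in G and C.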

How the data were processed

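RNA isolated with TRIzol was labeled with cyanine 3 by the authors and hybridized to 1-color arrays. The deposited intensity is the processed signal of Agilent Feature Extraction (9.5 per the labels, 11.0.1.1 per the file headers), with local background subtracted, beside 0 or 1 marks for well above background, saturated and outlier spots. The authors also deposited log2 values, the series matrix, which equal the log2 signal less the array's 75th percentile (within 0.0806) and served as an alternative.

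Of 15646 spots 15110 were no controls, and spots of a probe were averaged. The log2 signal minus the array median was fitted in R 4.3.3 with limma 3.58.1 (statmod 1.5.0), with 1 effect per animal, on 18 arrays, with outlier spots missing and no saturated spot among bright probes. Precision is limited by 9 arrays a stage and by the dim middle arrays. The animal pairs the arrays, since each was biopsied at both stages, and deviations of arrays of 1 animal correlated by 0.23 on average (−0.147 to 0.515) and of different cattle by −0.0278. The fit was tested on simulated data, with 200 of 14966 probes changed. It recovered 62.5% of these, 9.09% at a log2 change of 0.5 and 83.6% at 1, and 6.02% of its calls were false. No difference between slides was simulated, so this cannot show how far slide enters the calls.

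Symbols of 5567 bright probes were matched to RefSeq by accession (325 differed from the design). The highest-signal probe stood for a gene in a list. Named genes are the 12 largest rises and 12 largest falls called and moving the same way in 9 of 9 cattle, the 2 most raised and 2 most lowered called members of each list (for markers of other cells the 2 brightest), the transporters and respiratory genes the study lists, SOD1, SOD2, and genes with probes called in opposite directions. Probes named only by a clone, a LOC number or an accession were left out of the 12 rises and 12 falls. Some of the named genes are not printed. Members and lists were chosen with earlier results of these data known. Alternatives were the 75th percentile, the bright median, quantile and cyclic loess normalization, normexp (offset 50), outlier spots kept, the series matrix, other brightness filters, adjustment over bright probes, no animal block, a random block for the slide (correlation 0.266), 27 arrays, the methods' t-test, cattle 1 to 7, each animal left out and, chosen after seeing the data, cattle 4, 8 and 9 left out, whose middle arrays had the lowest shares above background. The scan day divides these arrays as the slide does.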

Additional observations from a re-analysis of the deposited data

Results flagged for a closer look

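Of 88 groups of 9 arrays examined for 1 value far from the rest by Dixon's criterion, in the leading genes, in the genes with probes of opposite direction and in the array measures, 11 held such a value. Chance gives about 1 in 20 for independent groups. These groups share the same arrays, so the 11 cannot be judged against that rate.

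Animal 4, whose middle array had the lowest median signal (8.22), gave 5 of them at the middle stage. The level of DHTKD1 was 7.08 in animal 4 against 4.84 to 5.92 in the other 8, that of FNDC5 8.27 in animal 4 against 6.06 to 7.11 in the other 8 and that of YARS2 9.22 in animal 4 against 6.99 to 8.11 in the other 8, each on the high side. ENPP3 was at 0.45 in animal 4 against 1.76 to 2.93 in the other 8 and IL36RN at 0.60 in animal 4 against 2.03 to 2.99 in the other 8, each on the low side. In all 5 genes the outlying value lay farther from the late levels than the other middle values did, and without animal 4 the changes were −3.65, −2.98, −2.74, 3.46 and 2.86. The part of the dim array in them was not tested.

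At the late stage ND6 was 1.55 in animal 3 against 0.11 to 0.83 in the other 8, SELENBP1 was 5.10 in animal 9 against 5.75 to 6.36 in the other 8 and the GAPDH probe from base 1185 was 8.69 in animal 2 against 8.94 to 9.19 in the other 8. The ACTB probe from base 1780 was low on 2 arrays, with 9.55 in animal 9 against 9.76 to 9.97 in the other 8 at the late stage and 9.12 in animal 8 against 10.13 to 10.85 in the other 8 at the middle stage, and the ACTB probe from base 1587 was 7.60 in animal 7 against 8.12 to 8.60 in the other 8 at the middle stage.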

How the results depend on the processing

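The number of bright probes called kept within 1.5 times its value under every alternative except the slide as a random block, with 2288 called (1134 higher, 1154 lower). After normexp correction 4440 were higher and 888 lower, at 2-fold 1694 and 57, and the median change was 0.54. That median was −0.0863 with the 75th percentile, −0.0899 with the median of the bright probes and −0.0861 in the series matrix, and the cause of these shifts was not tested. No animal block gave 4232 calls, with 2 of 163 named genes losing theirs (ACP2, COL1A2), and this unpaired fit changed no other call of a named gene. The methods' t-test gave 4345 after adjustment. The brightness filter over 27 arrays gave the same probes. Leaving out 1 animal gave 3930 to 4204 calls, 2137 to 2391 higher and 1732 to 1874 lower, at 2-fold 1215 to 1538, and medians of 0.054 to 0.12. Without cattle 4, 8 and 9, 4046 were called.

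Of 163 named probes called, 26 did not pass with the slide block and none changed direction. After normexp correction 15 did not pass and 14 changed direction, the only setting in which any did. Genes named above whose falls kept their direction but did not pass after normexp correction were ACTA2, CS, EBP, HBA, ISG15, JUN, JUP, KRT19 and PSMB8. The slide block also ended the calls of COL1A2 (adjusted *P* = 0.205) and the GAPDH probe from base 972 (adjusted *P* = 0.0793). With those not called before, the values of opposite sign after normexp correction were ACP2 0.090, ACTB (base 1587) 0.39, ACTB (base 1780) 0.38, APOA2 0.69, CLDN5 0.32, COL1A2 0.040, COL6A1 0.64, DSG3 0.19, GAPDH (base 1185) 0.015, GAPDH (base 989) 0.74, GAPDH (base 1209) 0.57, ITGB2 0.55, JUND 0.029, LGALS7B 0.17, NQO2 0.018, RPL27 (base 450) 0.21, RPL27 (base 415) 0.66, RPL27 (base 389) 0.25, S100A12 0.054 and TPI1 0.39. The relative median of the SLC genes was −0.095 after normexp correction and −0.023 without cattle 4, 8 and 9, against 0.086. Signal over background on the middle arrays limits what dim probes can show.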
